A study of Mus musculus with 6 samples.

Results

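Metal ion carriers and metallothioneins were examined in kidney RNA of mice. The set held every gene of the table whose symbol belongs to the solute carrier families Slc11, Slc30, Slc31, Slc39, Slc40 or Slc41 or to the Cnnm family, together with the metallothionein genes Mt1 to Mt4, Trpm6, Trpm7, Atp7a and Atp7b. It came to 43 of the 20138 genes listed, in 6 roles: 3 metallothioneins, 10 zinc exporters, 14 zinc importers, 3 iron carriers, 4 copper carriers and 9 magnesium carriers and channels. Of the 44 symbols laid out by role, Mt4 was the 1 without a value here.

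The 6 mice were 35 days old, 3 in each of 2 groups. The genotype labelled Pkhd1Cre; Pkd2 F/F (Pkd2-KO) carries floxed Pkd2, the polycystin-2 gene, and Cre driven by the promoter of Pkhd1, a gene active mainly in kidney tubules. The other genotype adds the allele labelled miR-214null (Pkd2-miR-214-KO), and the labels do not say whether 1 or both copies are null. Both groups therefore lack Pkd2 where Cre acts, and no mouse with intact Pkd2 was compared. The values are fitted estimates of the authors for each gene. Values per animal were not analysed here, so the depth of the libraries is unknown and no level can be given for a single group. A positive log2 fold means more RNA in the group with the miR-214null allele, a direction read from Mir214, whose log2 fold in the authors' deposited table is -7.62. Mir214 had a mean log2 CPM (counts scaled to library size) over both groups of only -1.83. Dnm3os, the transcript that holds Mir214, was at -1.23 and Pkd2, targeted in both groups, at -0.11 in the authors' deposited table.

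Zinc, copper, iron and magnesium cross membranes through channel, carrier and pump proteins. ZIP proteins (Slc39) bring zinc into the cytosol and ZnT proteins (Slc30) take it out of the cell or into vesicles, while metallothioneins, small cysteine-rich proteins, bind zinc and copper inside the cell. The kidney tubule reclaims filtered metals, and magnesium is taken back in its distal convoluted part through the channel Trpm6.

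No metal carrier or metallothionein passed the threshold of an adjusted p under 0.05. The count was 0 of 43 in the authors' edgeR likelihood ratio test, against 25 of all genes (0.124%), of which 0.104% of the table was higher and 0.0199% lower. At an unadjusted p under 0.05 there were 2 members, Slc39a5 with a negative estimate and Mt2 with a positive one. That is 4.65% of the members, and 4.82% of all genes lay under the same value, 3.1% on the higher and 1.71% on the lower side. Among genes with a mean of at least 1 CPM (counts scaled to library size) the share was 4.08%, and 37 of the 43 members reached that level. The members' share was thus near the background. Estimates were positive in 24 and negative in 19 of the 43, and their median log2 fold was 0.06, beside a median of 0.00 over all genes.

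**Figure D1:**
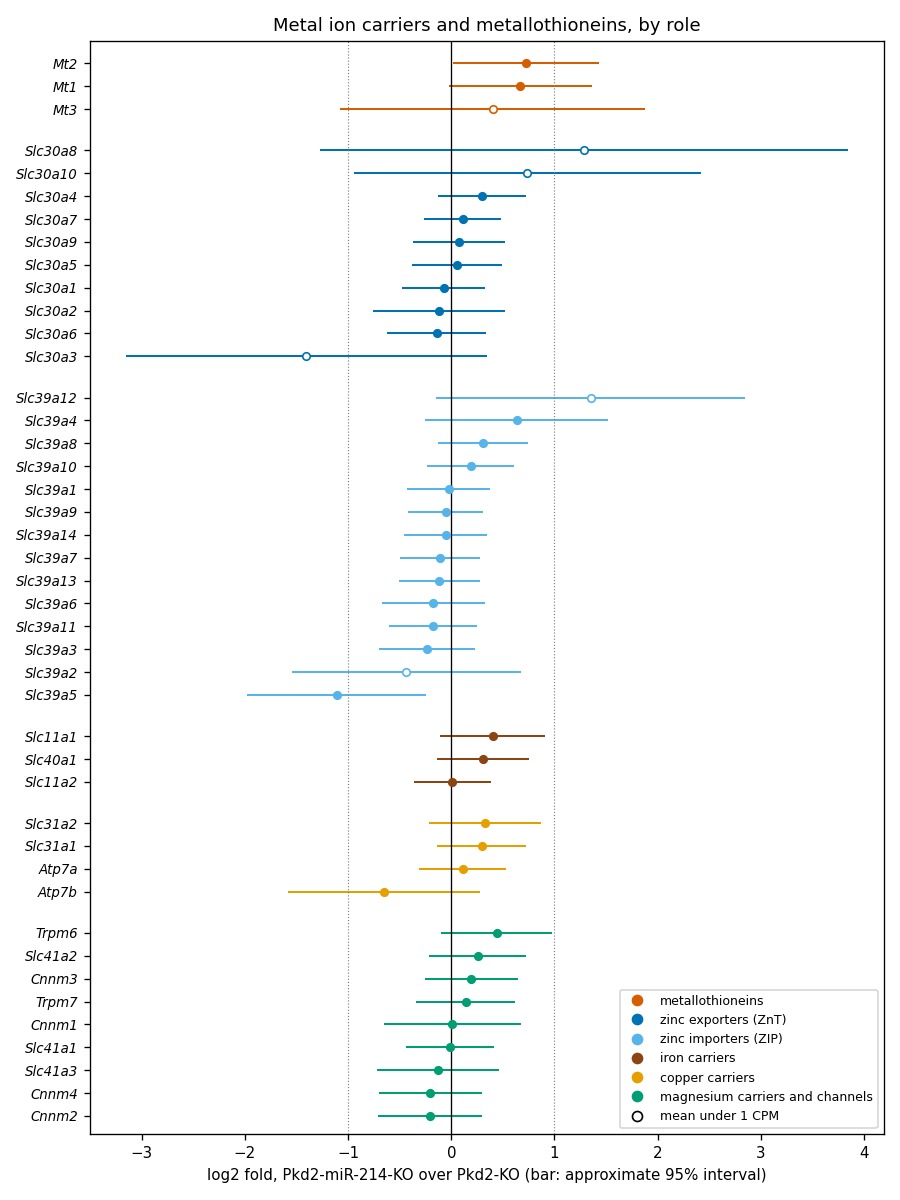
Log2 fold of each of the 43 genes between the genotypes (horizontal axis), grouped by role, with approximate 95% intervals as bars, filled points for a mean of at least 1 CPM and open points below it, and dotted lines at a doubling and a halving. The intervals of 2 genes, Mt2 and Slc39a5, leave out 0, and those of 32 genes stay between a halving and a doubling.

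Errors are an approximate standard error (SE), the absolute log2 fold over the root of the likelihood ratio, and 95% intervals treat the estimate as normal. For 32 of the 43 members the approximate 95% interval stayed between a halving and a doubling, beside 57.5% of all genes. At a mean of at least 1 CPM the shares were closer, 86.5% of the members and 79.5% of all genes. A further gene would have needed an unadjusted p of about 6.46e-05, or an estimate of 3.996 SE, to pass over all genes. For the members of at least 1 CPM this meant a fold between 1.67 and 3.72, with a median of 1.89. Smaller estimates would not have passed at these SEs. This is a cutoff on the estimate and not a limit on the true difference.

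The metallothionein genes gave the clearest pair of positive estimates, and their promoters are shown for that reason. Mt4, Mt3, Mt2 and Mt1 lie in this order on the plus strand of mouse chromosome 8 between 94137197 and 94180327 (GENCODE M21, GRCm38), with 5513 bases between Mt2 and Mt1. The zinc sensor Mtf1 is a transcription factor that switches on Mt1, Mt2 and the zinc exporter gene Slc30a1 through metal response elements, whose core reads TGCACNC or TGCGCNC. The windows below run from 250 bases before the RefSeq start to 50 after it (GRCm38.p6), with cores of either strand in capitals. They are chr8:94172368-94172667, plus strand, for Mt2, chr8:94178839-94179138, plus strand, for Mt1 and chr1:191906531-191906830, plus strand, for Slc30a1.
Mt2: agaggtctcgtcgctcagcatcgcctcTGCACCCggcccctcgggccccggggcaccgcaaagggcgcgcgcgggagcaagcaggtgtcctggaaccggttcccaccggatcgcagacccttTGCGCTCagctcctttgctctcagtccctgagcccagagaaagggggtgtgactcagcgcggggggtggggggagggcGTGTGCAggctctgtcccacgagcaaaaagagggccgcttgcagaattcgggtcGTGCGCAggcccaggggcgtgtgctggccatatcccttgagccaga
Mt1: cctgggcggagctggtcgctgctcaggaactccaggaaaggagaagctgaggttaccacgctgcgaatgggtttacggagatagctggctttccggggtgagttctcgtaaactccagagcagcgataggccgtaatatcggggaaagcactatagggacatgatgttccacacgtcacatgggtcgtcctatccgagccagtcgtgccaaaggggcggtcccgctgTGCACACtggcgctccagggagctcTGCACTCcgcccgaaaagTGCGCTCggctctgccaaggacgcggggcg
Slc30a1: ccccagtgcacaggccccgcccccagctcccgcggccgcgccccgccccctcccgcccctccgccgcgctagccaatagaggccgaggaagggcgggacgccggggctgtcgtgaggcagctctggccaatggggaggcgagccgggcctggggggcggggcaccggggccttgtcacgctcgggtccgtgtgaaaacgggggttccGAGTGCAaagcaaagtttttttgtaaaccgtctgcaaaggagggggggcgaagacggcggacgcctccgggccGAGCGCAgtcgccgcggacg

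The Mt2 window held 4 cores, the Mt1 window 3 and the Slc30a1 window 2. Of the 37 members with a RefSeq window, 23 (62.2%) held at least 1 core, and among 27025 genes with a window 28.2% did. Among genes of at least 1 CPM the shares were 62.5% of 32 members and 39.6% of 10839 genes. At least 3 cores were found in 4 members (10.8%), Mt2, Mt1, Slc30a4 and Slc30a10, and in 2.27% of all genes with a window. At a mean of at least 1 CPM these were 3 of the 32 members, without Slc30a10, and 3.73% of the 10839 genes. Some Slc30a10 cores overlapped each other. In the authors' deposited table the median log2 fold was 0.01 over the 23 members with a core and 0.09 over the 14 without, with 12 and 8 positive estimates. Members under 1 CPM are included in both, and the difference was not tested. Slc11a2, Slc30a8, Slc39a4, Slc39a6, Slc39a14 and Slc40a1 had no window. A match of letters is not a site shown to be bound.

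Mt2 had a log2 fold of 0.72 ± 0.36 (SE), or 1.65-fold, in the authors' deposited table, with an unadjusted p of 0.0454 and an adjusted p of 1. For Mt1 the authors' deposited table gave 0.67 ± 0.35, or 1.59-fold (unadjusted p = 0.0582, adjusted p = 1). The estimates of this pair lay 0.05 apart, less than either SE. Mt1 and Mt2 are close paralogs, and how reads that match both were counted is not given in the sources used here. Mt3, a metallothionein known mainly from the brain, was listed at 0.40 ± 0.76 at a mean under 1 CPM in the authors' deposited table. The nearest genes with values on either side of the cluster had estimates near 0 in the authors' deposited table, with 0.06 ± 0.21 for Bbs2, a gene of the ciliary BBSome, and -0.13 ± 0.21 for Nup93, a nuclear pore gene. An antisense RNA, Gm45774, covers 73.5% of the exon length of Mt2, and since the use of strand in counting is not given in the sources used here, its reads cannot be told apart from those of Mt2.

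The spread behind the metallothionein folds was wide. Among the 500 genes nearest in expression, the approximate SE of Mt2 lay at the 97.8 percentile and that of Mt1 at the 96.4 percentile. With Slc39a5 at the 99.4 percentile these were the 3 members above the 95 percentile, and the median over the members was 60.6. The 3 genes with the smallest unadjusted p of the set were therefore also the 3 with the widest spread for their level.

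**Figure D2:**
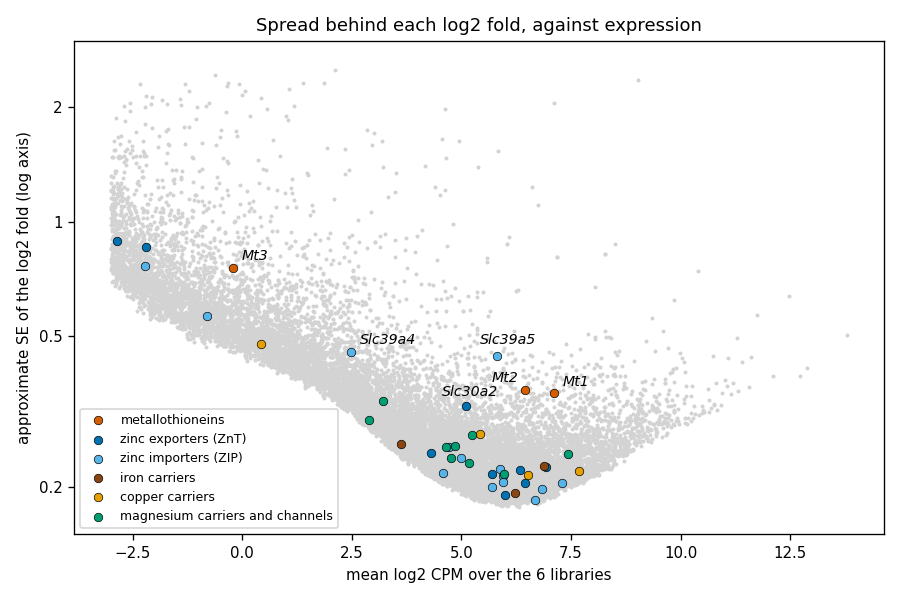
Approximate SE of the log2 fold (vertical, log axis) against mean log2 CPM (horizontal) for all genes with a mean log2 CPM of at least -3 in grey and the metal genes coloured by role, so that Slc30a8 at -3.66 is not drawn. Slc39a5, Mt1 and Mt2 stand above most genes of their expression, while most other members lie within the grey band.

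Several other groups of genes, listed because they bear on Mt1 and Mt2, also had mostly positive estimates. Mtf1 itself was at -0.03 ± 0.24 in the authors' deposited table, and it was 1 of 8 genes of the response to metals and oxidative stress. Of these 6 had positive folds and 1 passed, Hmox1, the enzyme that breaks down heme (1.87 ± 0.39, adjusted p = 0.00255 in the authors' deposited table). The median over the 8 was 0.16. Glucocorticoids also induce Mt1 and Mt2: of 12 glucocorticoid-responsive genes 8 were positive with a median of 0.36, 0 passed and 1, Ddit4 (0.83 ± 0.34 in the authors' deposited table), had an unadjusted p under 0.05. All 14 acute phase and IL-6 response genes had positive folds with a median of 1.32, and 2 of them passed, Orm2 (4.32 ± 0.95) and Saa3 (3.66 ± 0.84) in the authors' deposited table. Of the 14, 7 had an unadjusted p under 0.05, beside 4.82% of all genes. Orm2 had a mean under 1 CPM (mean log2 CPM -0.55). The estimates of Stat3 (0.01 ± 0.20), Socs3 (0.15 ± 0.27) and Il6ra (0.17 ± 0.27) were the lowest of this list and within 1 SE of 0. Liver makes much metallothionein, and 11 of 12 hepatocyte genes had positive folds with a median of 2.62 and 1 past the threshold, Bhmt (4.90 ± 1.16 in the authors' deposited table). An unadjusted p under 0.05 was found for 7 of the 12. Fgb stands in both of the last lists, and Alb, which encodes the main plasma protein made by the liver, was at 6.64 ± 2.05 (adjusted p = 0.226) in the authors' deposited table. Not every list went this way: all 13 proximal tubule genes, given further below, were negative with a median of -0.54. The part of all these groups in the metallothionein estimates was not tested. In whole kidney, more cells of a type and more RNA per cell cannot be told apart.

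Zinc exporters were close to even between the genotypes. Among 10 ZnT genes 6 had positive and 4 had negative log2 folds around a median of 0.07, and 0 had an unadjusted p under 0.05. The 7 of at least 1 CPM ranged from -0.14 (Slc30a6) to 0.30 (Slc30a4), and all 7 intervals stayed between a halving and a doubling. Slc30a1, the exporter of the cell surface and a target of Mtf1, stood at -0.07 ± 0.21 in the authors' deposited table, with an interval from -0.47 to 0.33, beside the positive estimates of Mt1 and Mt2. Slc30a9, with the highest mean CPM of the exporters, was at 0.08 ± 0.23 in the authors' deposited table. Slc30a5 and Slc30a6, whose products pair in the early secretory pathway, were at 0.06 ± 0.22 and -0.14 ± 0.25, and Slc30a7 of the Golgi at 0.11 ± 0.19, in the authors' deposited table. Slc30a4 (0.30 ± 0.22) and Slc30a2 (-0.12 ± 0.33), both of intracellular vesicles, completed the exporters of at least 1 CPM in the authors' deposited table. Slc30a3 of synaptic vesicles (-1.41 ± 0.89), Slc30a8 of insulin granules (1.29 ± 1.30) and Slc30a10, a manganese exporter (0.74 ± 0.86), had means under 1 CPM in the authors' deposited table, and fitted folds at such levels depend on the prior count.

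Zinc importers had more negative than positive estimates, and most lay near 0 apart from Slc39a5. Of 14 ZIP genes 10 log2 folds were negative and 4 positive, with a median of -0.08, and 1 had an unadjusted p under 0.05. Of all 20138 genes, 9704 were negative and 10020 positive. Whether the importers differ from that was not tested. Slc39a5 (chromosome 10, 128395931 to 128401229, minus strand), an importer of the basolateral cell surface, had a log2 fold of -1.11 ± 0.44, or 0.463 of the Pkd2-KO level (unadjusted p = 0.0121, adjusted p = 0.648), in the authors' deposited table. Its interval from -1.98 to -0.24 was the 1 among the carriers that left out 0. The next lowest importer of at least 1 CPM in the authors' deposited table was Slc39a3, a zinc importer of the cell surface, at -0.24 ± 0.24, and its interval from -0.70 to 0.23 overlapped that of Slc39a5. The difference between them was not tested.

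Of the other importers of at least 1 CPM, Slc39a4 had the estimate farthest from 0. Slc39a1, the importer with the highest mean CPM, was at -0.02 ± 0.20 in the authors' deposited table, and Slc39a7, which releases zinc from the endoplasmic reticulum, at -0.11 ± 0.20. An annotated transcript on the same strand, Gm20427, covers 80.7% of the exon length of Slc39a7, so reads of the 2 may be shared. Slc39a14, an iron, manganese and zinc importer that IL-6 induces in liver, was at -0.05 ± 0.21 in the authors' deposited table, beside the acute phase genes above. Slc39a8, its closest relative, was at 0.30 ± 0.22, and Slc39a10 and Slc39a6, which are related to each other, at 0.19 ± 0.21 and -0.17 ± 0.25, in the authors' deposited table. Slc39a9 (-0.05 ± 0.18), Slc39a13 (-0.11 ± 0.20) and Slc39a11 (-0.18 ± 0.22) each lay within 1 SE of 0 in the authors' deposited table. Slc39a4, the importer of dietary zinc, was at 0.63 ± 0.45 in the authors' deposited table. Slc39a12 (1.35 ± 0.76) and Slc39a2 (-0.44 ± 0.57) had means under 1 CPM in the authors' deposited table.

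Markers of the proximal tubule had negative estimates beside Slc39a5. All 13 listed proximal tubule genes were negative with a median of -0.54, 0 passed, and 2 had an unadjusted p under 0.05, Slc7a13 (-1.996 ± 0.78) and Gatm (-0.99 ± 0.47) in the authors' deposited table. Kap, the most abundant of the list by CPM (mean log2 CPM 12.47), was at -1.22 ± 0.64 (unadjusted p = 0.055) in the authors' deposited table. Slc7a13 is also known as a male-biased gene of the mouse kidney. Whether Kap and the other genes of the list differ between the sexes was not examined. The sexes of the animals are not in the labels: Xist, the RNA of the silenced X chromosome, was listed at 10.21 ± 2.36 on the log2 scale in the authors' deposited table (adjusted p = 0.0168), while the 4 Y-linked genes lay between -0.66 and -0.14 with an SE of at least 1.40. Sex and genotype cannot be told apart in these values. The pancreas also makes Slc39a5, and its defining genes Ins2, Gcg and Cpa1 were listed at a mean log2 CPM of -4.18, near the lowest of the table, -4.19. Of its other genes on the list, Pnlip was at a log2 fold of 2.48 ± 1.55 and a mean log2 CPM of -4.12, and Cela1 at -0.32 ± 0.39 and 5.63, in the authors' deposited table. The part of the tubule and pancreas genes in the Slc39a5 estimate was not tested.

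Iron carriers all had positive estimates, and none passed. Slc11a1, which moves metal ions out of the phagosome of macrophages and neutrophils, was at 0.40 ± 0.26 in the authors' deposited table, and Slc40a1 (ferroportin), the iron exporter of cells, at 0.31 ± 0.23. Slc11a2 (DMT1), which brings ferrous iron into the cytosol, was at 0.01 ± 0.19, with an interval from -0.37 to 0.39, in the authors' deposited table. All 3 intervals stayed between a halving and a doubling. Of 19 other iron genes 15 had positive and 4 negative estimates (median 0.24), and Hmox1 was the 1 that passed. Trf, which encodes the iron carrier of plasma, had 0.92 ± 0.40, and Heph, an iron oxidase, -0.47 ± 0.23, in the authors' deposited table, both at an unadjusted p under 0.05, while Fth1, the ferritin heavy chain and the most abundant of the list by CPM, was at 0.24 ± 0.38. Hamp, which encodes hepcidin, the hormone that takes ferroportin off the cell surface, was at 2.30 ± 1.04 in the authors' deposited table (unadjusted p = 0.0275), at a mean log2 CPM of only -3.19. Markers of macrophages, which use Slc11a1 and Slc40a1, had positive folds in 14 of 17 with a median of 0.36, and 2 passed, Marco (5.99 ± 1.01) and Cd163 (1.76 ± 0.35) in the authors' deposited table. An unadjusted p under 0.05 was found for 8 of these 17 markers, 7 positive and 1 negative. The 3 negative markers there were Itgax (-0.75 ± 0.37, unadjusted p = 0.0396), Emr1 (-0.37 ± 0.27) and Csf1r (-0.03 ± 0.22). The macrophage markers thus did not all move together. The 8 erythroid and blood genes were all positive with a median of 1.44, 0 past the threshold and 3 at an unadjusted p under 0.05. Their part in the iron carriers' estimates was not tested.

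No copper carrier passed, and none of their intervals left out 0. Slc31a1 (CTR1), the copper importer and the member with the highest mean CPM of all 43, was at 0.30 ± 0.22 in the authors' deposited table, with an interval from -0.13 to 0.73. Slc31a2 (CTR2) was at 0.33 ± 0.28 and the copper pump gene Atp7a, mutated in Menkes disease, at 0.11 ± 0.22, in the authors' deposited table. Atp7b, the copper pump of Wilson disease, was at -0.65 ± 0.47 by the authors' deposited table, at a low mean log2 CPM of 0.43. Of 16 other copper genes 7 had positive and 9 negative estimates (median -0.06), and the 1 that passed was Dbh, a copper enzyme that makes noradrenaline and a marker of the adrenal medulla (5.27 ± 1.31 in the authors' deposited table). Its adjusted p of 0.0475 was just under the threshold, and its mean log2 CPM of -2.26 was far under 1 CPM. Of the 12 adrenal and pancreas genes listed, Dbh among them, 8 had positive, 1 negative and 3 zero folds, and 2 reached 1 CPM. Th (6.05 ± 1.63) and Cyp11b2 (6.83 ± 2.31) had means under 1 CPM in the authors' deposited table. The tissue these RNAs came from was not tested. Lox, a copper enzyme that crosslinks collagen, was at 0.87 ± 0.38 (unadjusted p under 0.05) and Sod1, a cytosolic enzyme that carries copper and zinc, at -0.07 ± 0.28 in the authors' deposited table.

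No magnesium carrier or channel passed. Their 9 log2 folds ran from -0.21 to 0.44 with a median of 0.01, 5 positive and 4 negative, and all 9 intervals stayed between a halving and a doubling. Trpm6, the apical magnesium channel of the distal convoluted tubule, was at 0.44 ± 0.27 (unadjusted p = 0.107) in the authors' deposited table. Its relative Trpm7, found in most cells, was at 0.14 ± 0.24, and Slc41a1, a magnesium exporter, at -0.01 ± 0.22, in the authors' deposited table. Cnnm2, on the basolateral side of the same segment, was at -0.21 ± 0.26 in the authors' deposited table, with Cnnm4 at -0.20 ± 0.25, Cnnm3 at 0.20 ± 0.23 and Cnnm1 at 0.01 ± 0.34. Slc41a2 (0.26 ± 0.24) and Slc41a3 (-0.13 ± 0.30) completed the role in the authors' deposited table.

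Other magnesium genes of the tubule had more negative than positive estimates. Of 20 such genes 12 had negative and 7 positive estimates (median -0.11), 0 passed, and 2 had an unadjusted p under 0.05. These were Egf, a hormone that stimulates Trpm6 (-1.05 ± 0.45), and Cldn19, which with Cldn16 forms the pore for magnesium between cells of the thick ascending limb (-0.58 ± 0.23), in the authors' deposited table. Slc12a3, the sodium chloride carrier that marks the distal convoluted tubule, was at -0.67 ± 0.45 by the authors' deposited table, as against 0.44 for Trpm6. Of 12 markers of the thick ascending limb and distal convoluted tubule, 8 had negative and 3 positive estimates (median -0.34), 0 passed, and 3 had an unadjusted p under 0.05, the 2 above and Ppp1r1a (-0.99 ± 0.38 in the authors' deposited table). The difference between Trpm6 and these genes was not tested.

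**Figure D3:**
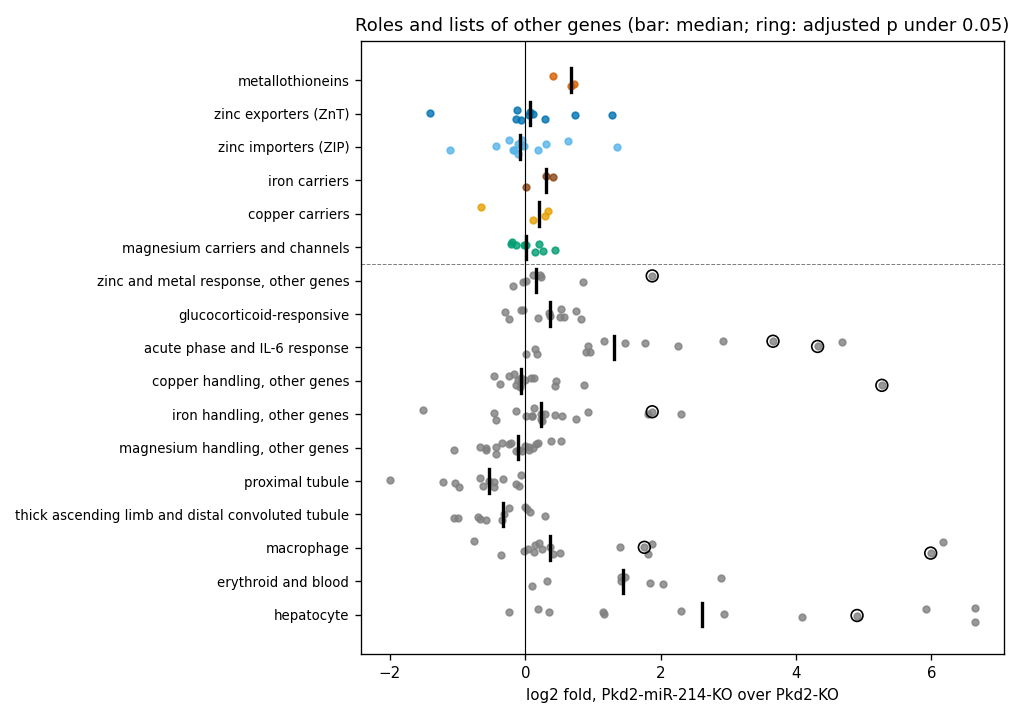
Log2 fold (horizontal) of each gene of the 6 roles, in colour, and of the lists of other genes, in grey below the dashed line, with black bars at the medians and rings at an adjusted p under 0.05. No coloured point carries a ring, and the hepatocyte, blood and acute phase lists lie farther to the right than any role, with medians of 2.62, 1.44 and 1.32.

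Levels were compared per length as the mean log2 CPM over both genotypes minus the log2 of the exon length in kilobases. Mt2 (7.21) and Mt1 (6.80) stood at the top, followed by Slc39a1 (6.04), Slc31a1 (5.58), Slc39a7 (5.47) and Slc39a5 (4.65). The order of Mt1 and Mt2 rests on exon lengths of 1246 and 588 bases in GENCODE M21 and was not tested. The length used for Mt1 covers its whole annotated span. By mean log2 CPM without length the order was the reverse, with 7.12 for Mt1 and 6.44 for Mt2. The exporter with the highest level per length was Slc30a1 (4.05), the magnesium gene Trpm7 (3.92) and the iron gene Slc40a1 (3.70). Many of the others lay between these levels and the 2.30 of Trpm6, and with no spread per animal their order cannot be told apart. Atp7b, Slc39a2, Slc39a12, Slc30a3, Slc30a8 and Slc30a10 were lowest, from -2.27 to -4.73. Kidney markers were abundant on the CPM scale, with mean log2 CPM of 11.40 for Umod of the thick ascending limb, 11.29 for Slc34a1 of the proximal tubule and 8.39 for Aqp2 of the collecting duct in the authors' deposited table.

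**Figure D4:**
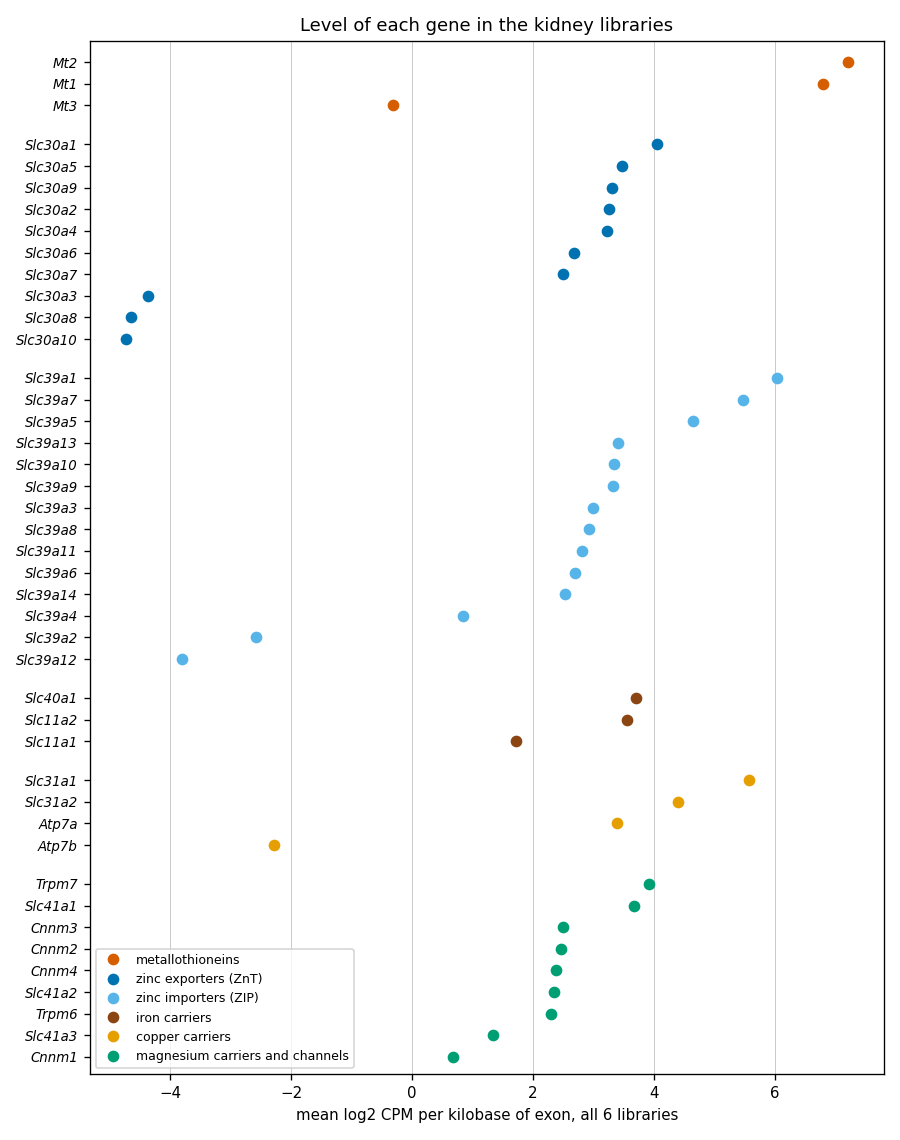
Mean log2 CPM per kilobase of exon over the 6 libraries (horizontal) for each of the 43 genes, grouped by role. Mt2 and Mt1 are highest at 7.21 and 6.80, and a tail of 6 genes lies at -2.27 or below.

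Because miR-214 is what the genotypes differ in, its target letters were looked up in the members. MicroRNAs repress messenger RNAs mainly by pairing of their seed, bases 2 to 8, with the 3' untranslated region (UTR). The mature sequence is shown with its seed in capitals (RefSeq, GRCm38.p6, chr1:162223438-162223459, plus strand), and the 30-base windows below it show the site CCTGCTG in capitals in 3 carriers of different metals and in Mt1 (GENCODE M21 transcripts).
mmu-miR-214-3p: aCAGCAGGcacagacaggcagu
Slc31a1: agcagaagaaacaaaCCTGCTGtcttgttg
Slc30a1: aaaaaatgtcattaaCCTGCTGtcttaagg
Cnnm3: agagcctccagccgtCCTGCTGtccttgag
Mt1: ttctaggctgctgctCCTGCTGtcccgtgg

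The longest annotated 3' UTR held at least 1 such site in 14 of 43 members (32.6%), and in 21.3% of 16900 genes of the table with a UTR. The members with a site had longer UTRs, with a median of 2411 bases against 1268 for the others. In Mt1 and Mt3 the site lay in letters that other transcripts of the same gene annotate as coding sequence, which leaves 12 members with a site in UTR alone. Their log2 folds ran from -0.21 to 0.74 with a median of 0.01, 7 positive and 5 negative, in the authors' deposited table. The highest, Slc30a10, had a mean under 1 CPM, and of those named here Slc31a1 was at 0.30, Cnnm3 at 0.20 and Slc30a1 at -0.07. Over the 29 members without a site the median was 0.06, with 15 positive. Genes of the table with a site had a median of -0.01 and those without one 0.00.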

How the data were processed

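RNA of whole kidney from 3 Pkd2-KO and 3 Pkd2-miR-214-KO mice was sequenced. The labels' extraction protocol names a total RNA kit and the series' design text speaks of polyA RNA, which was not settled here. TopHat2 2.0.12, edgeR and build mm10 are named, with no role or order, per the submitters' processing notes. For the counter, strand setting, filters and normalization, the sources used here give nothing. The authors deposited a log2 fold, a mean log2 CPM, a likelihood ratio score, a p-value and a p-value adjusted over all genes for each of 20138 genes, per the file headers. No value per library was used, so depth is unknown and precision is read from the approximate SE alone. Nothing says whether the 6 samples share litters. The p-values come from a likelihood ratio test of the difference between the groups and rest on these 6 animals alone.

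The chi-square tail of the likelihood ratio on 1 degree of freedom matched the deposited p-value within 6.25e-15, and Benjamini-Hochberg adjustment matched the adjusted one within 5.1e-14. No gene was tested anew. SEs, intervals, counts and medians were computed with Python 3.11.15, pandas 2.3.3, numpy 2.4.6 and scipy 1.17.1, figures with matplotlib 3.10.9, and the calculation was tested on simulated data. Exon lengths, UTRs and positions came from GENCODE M21, and promoter windows and the miRNA from RefSeq (GRCm38.p6).

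The direction of the folds was read from Mir214, so Mir214 is no separate check of the labels. Named with values were all metallothioneins, members with an unadjusted p under 0.05, the 2 with the highest mean CPM of each role and the 3 largest folds per direction of at least 1 CPM. The remaining members were named to account for all, and genes of other lists were named by smallest p or highest CPM, or, for pancreas, Slc12a3, Alb, the kidney markers and the genes beside the Mt cluster, for their role. Members and lists were chosen with earlier results of these data known. Alternatives were other sets of genes for the adjustment, Benjamini-Yekutieli adjustment, other thresholds, minimum levels and another centring.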

Additional observations from a re-analysis of the deposited data

How the results depend on the processing

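In the authors' edgeR test the count of members called was 0 of 43 when p-values were adjusted over genes of at least 1 CPM, over genes of a mean log2 CPM of at least 3, by Benjamini-Yekutieli, and at an adjusted p under 0.1. The lowest adjusted p of a member was 0.648 as deposited, 0.772 over genes of at least 1 CPM and 0.957 over genes of a mean log2 CPM of at least 3. At an unadjusted p under 0.05 the count stayed at 2 among members of at least 1 CPM, and at an unadjusted p under 0.01 it was 0, a stricter threshold by construction. The median log2 fold of the members was 0.06 as deposited, 0.01 over members of at least 1 CPM, 0.03 over those of a mean log2 CPM of at least 3 and 0.06 after centring on genes of at least 1 CPM. That centring changed the sign of 0 members. Leaving out replicates and other normalizations were not run, because no values per library were used. No paired analysis was possible because the samples share no replicate numbers. With 3 animals per group and the SEs found, estimates under 1.67-fold for members of at least 1 CPM would not have passed over all genes.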

Other observations

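Pvalb, a calcium-binding protein gene of the distal convoluted tubule, was listed in the authors' deposited table with a log2 fold of exactly 0 and a p of 1 at a mean log2 CPM of 2.89. It was 1 of 2 genes of at least 1 CPM, among 414 genes in all, with a fold of exactly 0.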
